A study of Drosophila melanogaster with 8 samples.

Results

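The tracheal genes described here are 10 Drosophila genes chosen by name: trh, vvl, dysf, rib, verm, serp, Gasp, obst-A, pio and uif. They are 10 of the 17559 genes in the count tables of 8 RNA-seq libraries made from whole wing discs, the larval epithelial sacs that form the wing and thorax. The list entry dys was read as dysfusion, whose symbol in the annotation is dysf. Of the 10, 9 had enough reads to be tested and rib did not.

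The study asked what the Hox gene Antp regulates in the adult muscle precursors, the cells on the disc that later form flight muscle. The CRISPR group carried 1151>AntpCRISPR, in which the driver line 1151 directs CRISPR against Antp, and the wt group came from the driver line crossed to w1118. Each group has 4 libraries, numbered 1 to 4. All larvae were raised at 29 °C and taken as wandering larvae, at about 5 days. Per the labels, the submitters' own analysis took CRISPR 1, CRISPR 2, wt 2 and wt 3; the labels do not say why CRISPR 3, CRISPR 4, wt 1 and wt 4 were left out. The wt cross carries the driver but no CRISPR transgene, so genetic background goes with genotype. The series' text places the CRISPR in the adult muscle precursors, and the labels name neither other cells that the driver reaches nor separate animals, so p-values measure the spread between libraries, which may be technical.

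The tracheal system is the branched network of air tubes that carries oxygen to fly tissues. One larval tracheal branch runs along the wing disc, and from it the air sac primordium grows over the notum, drawn by the FGF ligand Branchless (bnl) made in disc cells, and lies beside the adult muscle precursors. Tracheal fate starts with transcription factors such as Trachealess (trh), and the tubes then fill their lumen with a chitin matrix that sets tube length and width before gas filling. A whole-disc library holds whatever trachea stayed attached at dissection, together with epithelium and muscle precursors. In such bulk libraries, fewer tracheal cells and less RNA per cell cannot be told apart.

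The labelled tissue was present in every library: 11 wing disc epithelium markers summed to 2022 to 2220 CPM in CRISPR and 2070 to 2207 CPM in wt libraries (CPM, read counts brought to one library size with TMM factors). The libraries held 35076546 to 47980221 gene reads. Antp itself stood at 210, 166, 145 and 148 CPM in CRISPR 1 to CRISPR 4, against 195, 137, 140 and 121 CPM in wt 1 to wt 4, and its exons share sequence with CG46458. Antp was higher in CRISPR in every same-numbered pair, and the share of all genes with such pairs was not measured. Its log2 change over all 8 libraries was 0.18 (SE 0.18, edgeR adjusted p = 0.9999). Among the used libraries it was 0.40 (SE 0.11, edgeR adjusted p = 0.135, 0.0163 unadjusted). Since an edited gene can still be transcribed, these values give no check of the genotype labels. Other tissues were unevenly present. The 10 gut markers summed to 0.322 to 1181 CPM in CRISPR and 0.598 to 2139 CPM in wt libraries, with CRISPR 3, wt 2 and wt 3 high. The 9 sarcomere markers summed to 1213 CPM in CRISPR 2 and to 133 to 407 CPM in the other 7 libraries. In CRISPR 4 and wt 4, genes with longer transcripts were lower relative to the other libraries (Spearman's rho across 9255 genes -0.43 and -0.35, against 0.014 to 0.25 in the other 6, a description in which genes are not independent).

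As a check of the tracheal label, trh had 2183 to 4188 reads per library. The 9 tested members had between 521 and 42828 reads in each library. As background, vvl and uif also act in wing disc epithelium, and the chitin proteins are also made by cuticle-forming epidermis; the share of each level that comes from tracheal cells was not measured. The receptor gene btl and the tip cell gene esg were not analysed here. Their symbols were not matched to an ID in the count tables, which does not mean that they had no reads. Per kilobase of exon, mean levels over the 8 libraries ran from 193 CPM per kb for verm to 4.27 CPM per kb for dysf, with rib at 0.0285. By that measure verm, pio, vvl, obst-A, serp, Gasp and uif lay at the 94.0th percentile or above of all genes in the tables, trh at the 73.8th, dysf at the 62.8th and rib at the 31.1st. That ranking includes genes with few or no reads: of the 17559 genes, 9255 passed the filter on low counts over all 8 libraries.

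**Figure D1:**
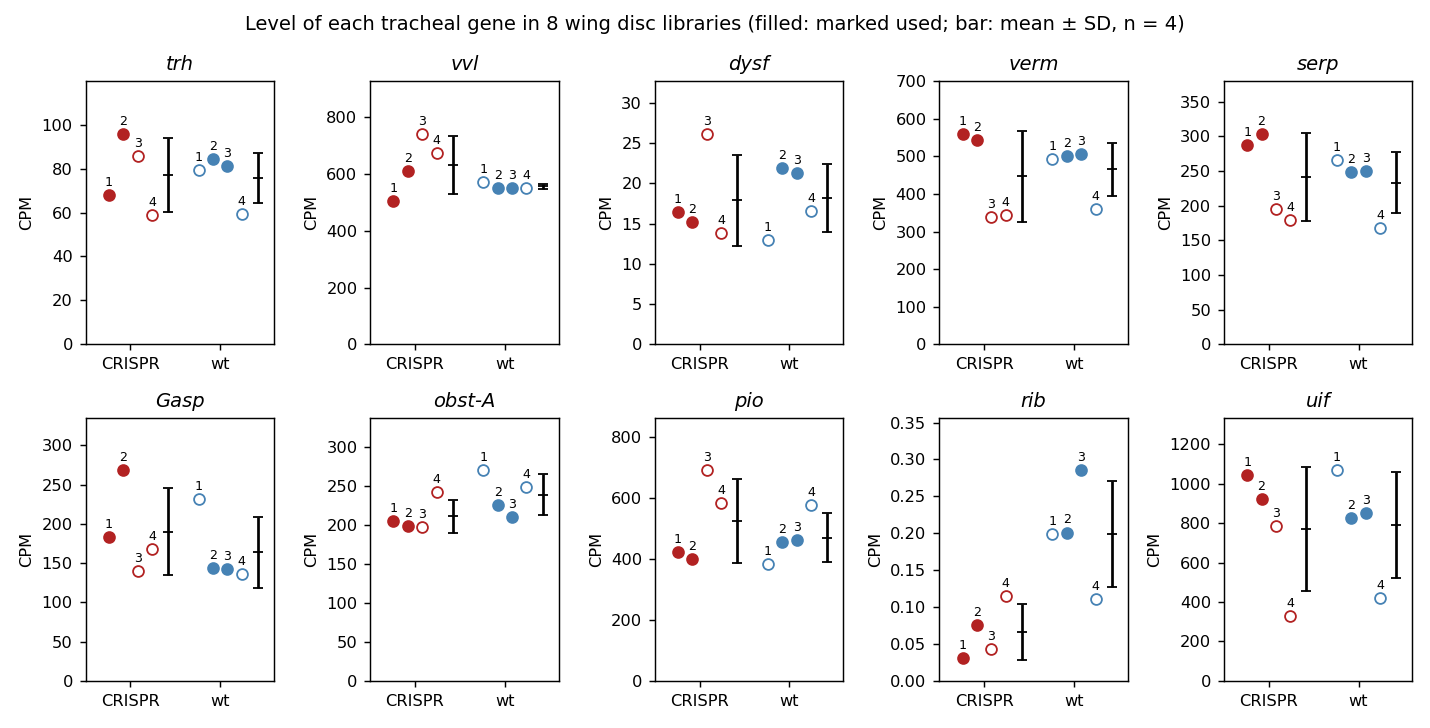
Level in CPM of each of the 10 tracheal genes in the 8 libraries, numbered as in the labels, with CRISPR left of wt; filled points are libraries marked used, and the black bar is mean ± SD (n = 4). The points of CRISPR and wt overlap for all 10 genes, and rib reaches 0.285 CPM at most.

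The transcription factors that set tracheal fate did not differ by genotype beyond the spread between libraries. The main edgeR fit over all 8 libraries did not pair them by number. Its edgeR adjusted p was 0.9999 for each of the 9 tested members, so it is not repeated below. The gene trh (FBgn0262139, 3L 366524 to 392633, dm6), which encodes the bHLH-PAS factor that starts tracheal development, stood at 68.1, 95.9, 85.7 and 58.9 CPM in CRISPR 1 to CRISPR 4, against 79.2, 84.2, 81.2 and 59.2 CPM in wt 1 to wt 4. Both genotypes had their lowest value in library 4, and the CRISPR values spanned the wt values. The means were 77.2 ± 16.7 CPM in CRISPR and 75.9 ± 11.4 CPM in wt (SD, n = 4 each), a log2 change of 0.023 (SE 0.17, 95% interval -0.37 to 0.42). The trh exons share 525 bases (9.5% of their length) with lncRNA:CR45378 on the same strand. Reads there may not have been assigned to trh, since the counting rules are not given.

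The gene vvl (FBgn0086680, 3L 6790158 to 6794941), a POU-domain factor that works with Trh in tracheal cells, stood at 504, 610, 743 and 674 CPM in CRISPR 1 to CRISPR 4, against 572, 553, 551 and 552 CPM in wt 1 to wt 4. The wt values spanned 20.2 CPM while the CRISPR values lay on both sides of them, with SDs of 102 CPM in CRISPR and 9.78 CPM in wt (n = 4 each). The log2 change was 0.18 (SE 0.13).

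The gene dysf (FBgn0039411, 3R 26076592 to 26098711), a bHLH-PAS factor of the fusion cells that join tracheal branches, was low throughout, at 16.4, 15.1, 26.2 and 13.8 CPM in CRISPR 1 to CRISPR 4, against 13.0, 21.9, 21.3 and 16.6 CPM in wt 1 to wt 4. CRISPR 3, wt 2 and wt 3 were the 3 highest libraries, and they are also the libraries with gut transcripts; the part of that tissue in the dysf level was not tested. Over all 8 libraries the log2 change was -0.024 (SE 0.24).

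The gene rib (FBgn0003254, 2R 19270078 to 19281396), a BTB-domain factor of tracheal and salivary gland tube formation in the embryo, was close to undetected. It had 1, 3, 2 and 5 reads in CRISPR 1 to CRISPR 4, against 8, 10, 13 and 5 reads in wt 1 to wt 4. A count of 0 would allow 3 reads, or 0.0625 to 0.0855 CPM before TMM factors, so the CRISPR 1 to CRISPR 3 values are at or under that limit (counting error alone). Summed, there were 11 reads in CRISPR and 36 in wt. The gene fell below the filter on low counts, and with no filter its log2 change was -1.53 (SE 0.60, edgeR adjusted p = 0.684, 0.0293 unadjusted, over 14895 genes).

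The chitin-matrix genes verm, serp and Gasp separated libraries more than genotypes. The neighbouring genes verm (FBgn0261341, 3L 19690033 to 19695260) and serp (FBgn0260653, 3L 19700977 to 19708015) lie 5716 bases apart on the same strand and encode secreted chitin deacetylases that stop tracheal tubes from growing too long. Values for verm were 561, 543, 339 and 345 CPM in CRISPR 1 to CRISPR 4, against 493, 502, 507 and 360 CPM in wt 1 to wt 4. Values for serp were 287, 304, 196 and 179 CPM in CRISPR 1 to CRISPR 4, against 265, 249, 250 and 168 CPM in wt 1 to wt 4. For both genes CRISPR 3, CRISPR 4 and wt 4 were below all of the other 5 libraries. The pair kept a narrow ratio, with verm 1.73 to 2.14 times serp in the 8 libraries, the closest match among the 36 pairs of tested members (root mean square difference of centred log2 levels 0.095). By genotype, the log2 change was -0.059 for verm (SE 0.21) and 0.051 for serp (SE 0.21).

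The gene Gasp (FBgn0026077, 3R 6088799 to 6100887), a chitin-binding protein of the tracheal lumen, stood at 184, 268, 140 and 168 CPM in CRISPR 1 to CRISPR 4, against 232, 144, 143 and 136 CPM in wt 1 to wt 4. CRISPR 2 and wt 1 were the highest libraries, 1 of each genotype. The log2 change was 0.21 (SE 0.24, 95% interval -0.32 to 0.75). The gene obst-A (FBgn0031097, X 20239855 to 20243209), a chitin-binding protein of the same family that organises the matrix, was the steadiest member, with 205, 199, 198 and 243 CPM in CRISPR 1 to CRISPR 4, against 270, 226, 210 and 249 CPM in wt 1 to wt 4. It was lower in CRISPR in 4 of 4 same-numbered pairs, the sole tested member with 1 direction in every pair. The share of all genes with 1 direction in every pair was not measured, so this is a description. The log2 change of obst-A, -0.18 (SE 0.12, 95% interval -0.44 to 0.090), did not pass, and with the library number as a block its edgeR adjusted p was 0.602.

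The apical surface proteins varied in opposite ways. The gene pio (FBgn0020521, 2R 24581245 to 24597862), a zona pellucida protein of the tracheal lumen that links cells to the matrix, stood at 422, 399, 691 and 584 CPM in CRISPR 1 to CRISPR 4, against 383, 457, 462 and 578 CPM in wt 1 to wt 4. CRISPR 3, CRISPR 4 and wt 4 were above the other 5 libraries, the 3 in which verm and serp were lowest. Its log2 change by genotype was 0.16 (SE 0.20). The gene uif (FBgn0031879, 2L 6972828 to 7010359), a large transmembrane protein of the apical membrane, stood at 1042, 923, 786 and 328 CPM in CRISPR 1 to CRISPR 4, against 1067, 823, 849 and 420 CPM in wt 1 to wt 4. CRISPR 4 and wt 4 were the lowest, and uif varied most of the tested members, 3.25-fold between wt 1 and CRISPR 4. It has the longest exon sequence of the 10, 11.8 kb, and the part of the length effect in these 2 libraries was not tested. Its log2 change was -0.037 (SE 0.37).

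**Figure D2:**
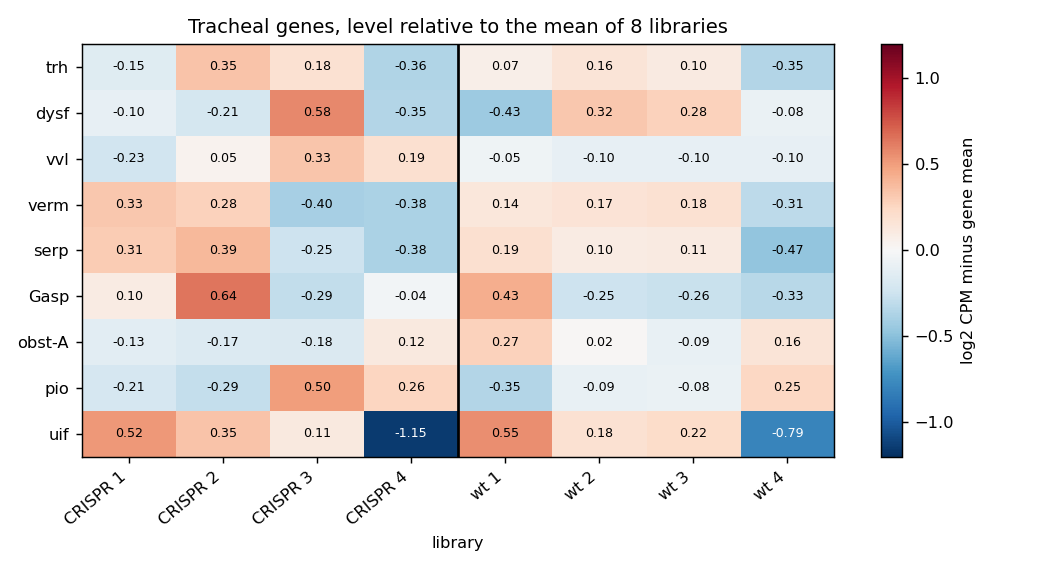
Centred log2 level (log2 CPM minus the gene's mean over 8 libraries) of the 9 tested tracheal genes, with the CRISPR libraries left of the black line and the wt libraries right of it. The rows for verm and serp are nearly alike, pio runs the other way, and uif reaches -1.15 in CRISPR 4 and -0.79 in wt 4.

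The 9 tested members therefore gave no single ranking of the libraries. The highest library was CRISPR 2 for trh, serp and Gasp, CRISPR 3 for vvl, dysf and pio, wt 1 for obst-A and uif, and CRISPR 1 for verm. The highest over lowest level ran from 1.37-fold (obst-A) to 3.25-fold (uif). The median SD of log2 level over the 8 libraries was 0.31 for the 9 tested members, against 0.25 for the 9255 genes tested. The ratio of dysf to trh varied 1.94-fold between CRISPR 3 and CRISPR 2, and that of Gasp to obst-A 2.46-fold between CRISPR 2 and wt 4. The median centred log2 level of the 9 was -0.096, 0.28, 0.11 and -0.35 in CRISPR 1 to CRISPR 4, against 0.14, 0.10, 0.10 and -0.31 in wt 1 to wt 4.

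The libraries low in verm and serp and high in pio also had the highest summed level of a list of 15 matched ecdysone response genes, which follow the moulting hormone. That list summed to 2383, 2005, 6428 and 6422 CPM in CRISPR 1 to CRISPR 4, against 1568, 2986, 2973 and 5803 CPM in wt 1 to wt 4. ImpE2, a secreted protein gene induced by the hormone, made up most of the difference; without it the other 14 genes summed to 1640, 1572, 2116 and 1803 CPM in CRISPR 1 to CRISPR 4, against 1243, 1646, 1626 and 1739 CPM in wt 1 to wt 4. The list's genes did not move as one. In CRISPR 3, CRISPR 4 and wt 4, 7 of the 15 (Hr4, Hr3, Hr39, Eip78C, E23, ImpE2 and ImpE3) were above the other 5 libraries, 3 were below them (ftz-f1, Eip74EF and EcR, the receptor gene) and 5 were neither. These 3 libraries were singled out by verm, serp and pio in the same data. The share of all tested genes that split the libraries this way was not measured, so the count cannot be read as particular to the list. The chitinase genes Cht5 and Cht7, named because they were called among the used libraries (below), also set these 3 libraries apart. Whether other chitin genes, such as the chitinase gene Cht2, do so was not counted, nor was the share of all tested genes. Cht5 stood at 22.6, 16.9, 58.9 and 58.4 CPM in CRISPR 1 to CRISPR 4, against 23.1, 40.6, 43.0 and 62.7 CPM in wt 1 to wt 4. Cht7 stood at 164, 151, 66.8 and 40.3 CPM in CRISPR 1 to CRISPR 4, against 177, 104, 106 and 32.0 CPM in wt 1 to wt 4. Idgf6, a chitinase-like protein of the tracheal and cuticle matrix, was named after its values were seen: it stood at 54.3, 78.4, 20.3 and 13.2 CPM in CRISPR 1 to CRISPR 4, against 76.0, 53.7, 53.3 and 14.4 CPM in wt 1 to wt 4. The part of ecdysone response in these levels was not tested.

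**Figure D3:**
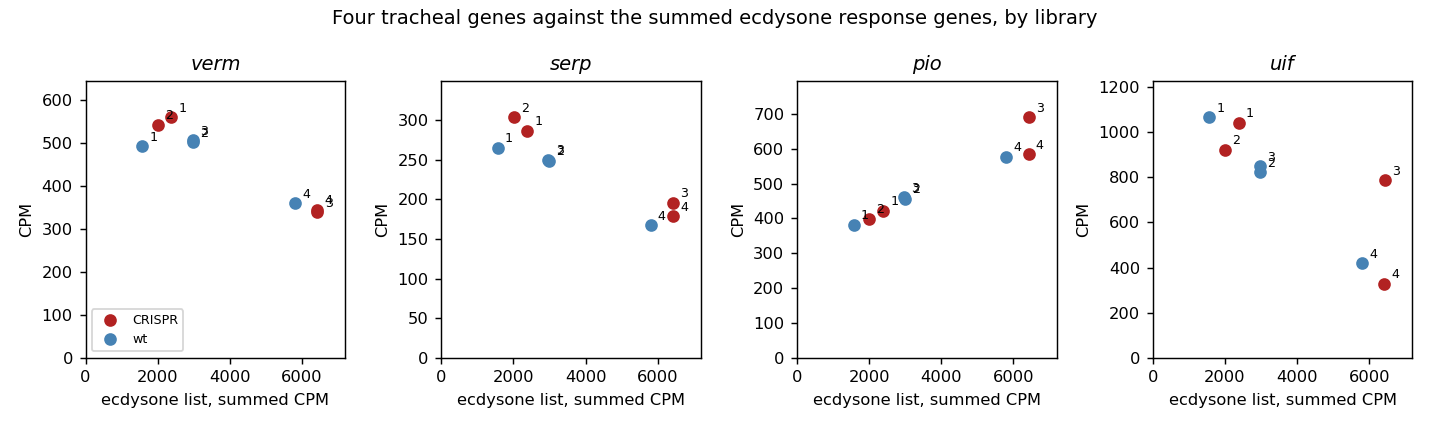
Level in CPM of verm, serp, pio and uif (vertical axes) against the summed CPM of the ecdysone response list (horizontal axis), 1 point per library, coloured by genotype and numbered. CRISPR 3, CRISPR 4 and wt 4, at 5803 to 6428 CPM on the horizontal axis, hold the lowest verm and serp and the highest pio.

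Across all 8 libraries, 0 of 9 tested tracheal genes passed in edgeR at an adjusted p under 0.05, where 0.184% of the 9255 genes tested passed. By unadjusted p under 0.05 the count was also 0, where 4.30% of all genes passed. DESeq2 and limma-voom called 0 members as well, and 0.843% and 0.130% of all genes. The genotypes overlapped for all 9, where 2.87% of all tested genes did not overlap. The members' median log2 change was 0.023, and that of all tested genes was also 0.023. Intervals were wide enough that changes of moderate size could not be told from none: the 95% interval for uif ran from -0.87 to 0.80, and that for obst-A, the narrowest, from -0.44 to 0.090.

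Among the 4 used libraries, with n = 2 per genotype, 0 of 9 passed in edgeR, where 2.72% of 9711 genes did. Here 4 of 9 members had an unadjusted p under 0.05, where 22.4% of all genes did. DESeq2 called 2 members and 8.04% of all genes, and limma-voom called 0 members and 4.10% of all genes. The gene dysf averaged 15.8 ± 0.905 CPM in CRISPR 1 and CRISPR 2 and 21.6 ± 0.442 CPM in wt 2 and wt 3 (SD, n = 2 each), a log2 change of -0.49 (SE 0.092). Its adjusted p was 0.0788 in edgeR and 0.0163 in DESeq2. Gasp averaged 226 ± 59.7 CPM in CRISPR 1 and CRISPR 2 and 144 ± 0.943 CPM in wt 2 and wt 3 (SD, n = 2 each), a log2 change of 0.62 (SE 0.20), with an adjusted p of 0.183 in edgeR and 0.0274 in DESeq2. Without CRISPR 2 the log2 change of Gasp was 0.30, and without CRISPR 1 it was 0.89.

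The other members with an unadjusted p under 0.05 were pio and serp. pio averaged 411 ± 16.3 CPM in CRISPR 1 and CRISPR 2 and 459 ± 3.54 CPM in wt 2 and wt 3 (log2 -0.20, edgeR adjusted p = 0.157). serp averaged 295 ± 12.0 CPM in CRISPR 1 and CRISPR 2 and 250 ± 0.871 CPM in wt 2 and wt 3 (log2 0.21, edgeR adjusted p = 0.193). In 7 of 9 tested members the used genotypes did not overlap, trh and vvl being the exceptions, and 57.8% of all tested genes likewise did not overlap. In these used libraries the wt pair was unusually close: wt 2 and wt 3 differed by at most 0.11 on the log2 scale over the 9 members (median 0.016), while CRISPR 1 and CRISPR 2 differed by up to 0.55 (median 0.12). Fits that left out CRISPR 1 or CRISPR 2, and so took the spread from wt 2 and wt 3, called 9 and 10 of the 10 members (rib passed the filter there), and 48.9% and 56.4% of all genes. Fits that left out wt 2 or wt 3 called 0 members, and 0.392% and 0.422% of all genes. Gut and fat body markers were low in both CRISPR libraries of this comparison and high in both wt ones. The 10 gut markers summed to 2.31 and 8.38 CPM in CRISPR 1 and CRISPR 2, against 2122 and 2139 CPM in wt 2 and wt 3, with the trypsin gene alphaTry at 0 reads in CRISPR 1. The 8 fat body markers summed to 86.7 and 127 CPM in CRISPR 1 and CRISPR 2, against 581 and 591 CPM in wt 2 and wt 3. The part of such tissue in these differences was not tested.

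**Figure D4:**
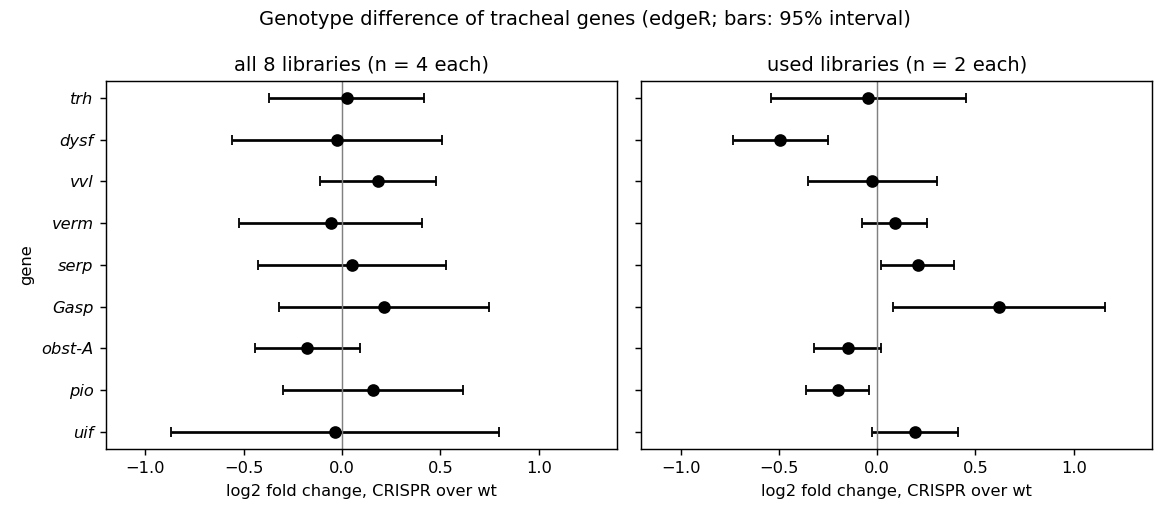
Log2 fold change, CRISPR over wt, of the 9 tested tracheal genes in edgeR over all 8 libraries (n = 4 each, left panel) and over the used libraries (n = 2 each, right panel), with 95% intervals as bars. Over all 8 libraries every interval includes 0, and over the used libraries those of dysf, serp, Gasp and pio do not, though none passed after adjustment over all genes.

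The libraries marked not used gave the other direction for most members. Among CRISPR 3, CRISPR 4, wt 1 and wt 4, 8 of 9 tested members had the opposite sign from the used libraries, obst-A being the exception (log2 -0.24 among not-used and -0.15 among used libraries). The share of all tested genes with opposite signs was not measured, so this count cannot be read as particular to the members. The log2 change of dysf was 0.43 among not-used libraries, that of pio 0.41, that of uif -0.42 and that of Gasp -0.26. A test of the difference itself, an interaction of genotype and use status in 1 fit of 8 libraries, called 0 of 9 members in edgeR (and 0 of all 10094 genes, or 0%). DESeq2 and limma-voom also called 0 members, and 1.53% and 0% of all genes. By unadjusted p under 0.05, 1 of 9 members passed, where 8.24% of all genes did: Gasp, at 0.0487 (difference of log2 changes, used minus not used, 0.94, SE 0.40, edgeR adjusted p = 0.606). The difference for dysf was -0.86 (SE 0.41, edgeR adjusted p = 0.624).

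Other genes were read from 6 fixed lists named for tracheal processes. The lists also hold genes that act in other cells, such as pyr and m (below). The share of each level that comes from tracheal cells was not measured. Over all 8 libraries 68 of the listed genes were tested and 0 passed in edgeR. Of these, 1 had an unadjusted p under 0.05, where 4.30% of all genes did. Among the used libraries 3 of the 68 passed in edgeR, where 2.72% of all genes did. Among the transcription factors, 0 of 11 passed, with a median log2 change of 0.054. The one with the smallest p was kni, a factor of branch identity and of a wing vein, at 45.9 ± 9.88 CPM in CRISPR and 39.1 ± 8.53 CPM in wt (SD, n = 4 each, log2 0.23, SE 0.20). Antp, given above, came next.

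Of the FGF branching genes, 0 of 7 passed, with a median log2 change of -0.058. The ligand gene bnl, which draws the air sac out over the disc, stood at 11.2, 10.3, 9.75 and 9.45 CPM in CRISPR 1 to CRISPR 4, against 12.4, 11.3, 13.8 and 11.1 CPM in wt 1 to wt 4. It was lower in CRISPR in 4 of 4 same-numbered pairs, although the genotypes just overlapped, and the share of all genes with such pairs was not measured. The log2 change of bnl was -0.26 (SE 0.12, edgeR adjusted p = 0.9999, 0.0652 unadjusted). The ligand gene pyr, which signals to mesodermal cells, had a log2 change of -0.13 (SE 0.12).

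Of the chitin and lumen matrix genes, 0 of 15 passed over all 8 libraries (median log2 change -0.056). The smallest p-values were those of mmy, which makes the sugar donor for chitin, with a log2 change of 0.17 (SE 0.10), and exp, which is needed for chitin deposition in tracheal cells, with -0.30 (SE 0.29, sharing 93 exonic bases with PI31). Among the used libraries 2 of the 15 passed, beside the 2.72% of all genes. Cht7 rose to 158 ± 8.88 CPM in CRISPR 1 and CRISPR 2, against 105 ± 1.43 CPM in wt 2 and wt 3 (log2 0.55, SE 0.056, edgeR adjusted p = 0.0252). Cht5 fell to 19.8 ± 4.02 CPM in CRISPR 1 and CRISPR 2, against 41.8 ± 1.64 CPM in wt 2 and wt 3 (log2 -1.12, SE 0.14, edgeR adjusted p = 0.0393). Over all 8 libraries their log2 changes were 0.012 for Cht7 and -0.11 for Cht5.

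Of the apical surface and zona pellucida genes, 0 of 9 passed over all 8 libraries (median log2 change -0.077). Among the used libraries m, a zona pellucida protein of wing cuticle, fell to 1.52 ± 0.320 CPM in CRISPR 1 and CRISPR 2, against 5.06 ± 0.640 CPM in wt 2 and wt 3 (log2 -1.78, SE 0.25, edgeR adjusted p = 0.0483). Over all 8 libraries m had a log2 change of -0.59 (SE 0.49), and sdt, a partner of the apical protein Crumbs, of -0.14 (SE 0.18). Of the septate junction genes, whose barrier is needed for tube length, 0 of 12 passed in either genotype comparison, with medians of 0.069 over all 8 and 0.21 over the used libraries. The claudin gene sinu had 0.15 (SE 0.15) and vari, which encodes a scaffold protein and shares 437 exonic bases with Pomp, had 0.085 (SE 0.10) over all 8.

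Of the air sac and tube guidance genes, 0 of 14 passed in either genotype comparison (median 0.015 over all 8). The receptor tyrosine kinase gene Alk had the lowest p of the 6 lists over all 8 libraries, at 14.2, 6.93, 5.08 and 4.14 CPM in CRISPR 1 to CRISPR 4, against 17.6, 13.3, 13.1 and 12.4 CPM in wt 1 to wt 4. CRISPR 2 to CRISPR 4 were below every wt library and CRISPR 1 was not. The log2 change was -0.90 (SE 0.36, edgeR adjusted p = 0.9999, 0.0330 unadjusted). Alk was lower in CRISPR in 4 of 4 pairs, and the share of all genes with such pairs was not measured. Among the used libraries its log2 change was -0.37 (SE 0.34, edgeR adjusted p = 0.562). The difference of log2 changes, used minus not used, was 1.41 (SE 0.50, edgeR adjusted p = 0.536, 0.0241 unadjusted). The phosphatase gene wun2 had a log2 change of 0.30 (SE 0.21).

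**Figure D5:**
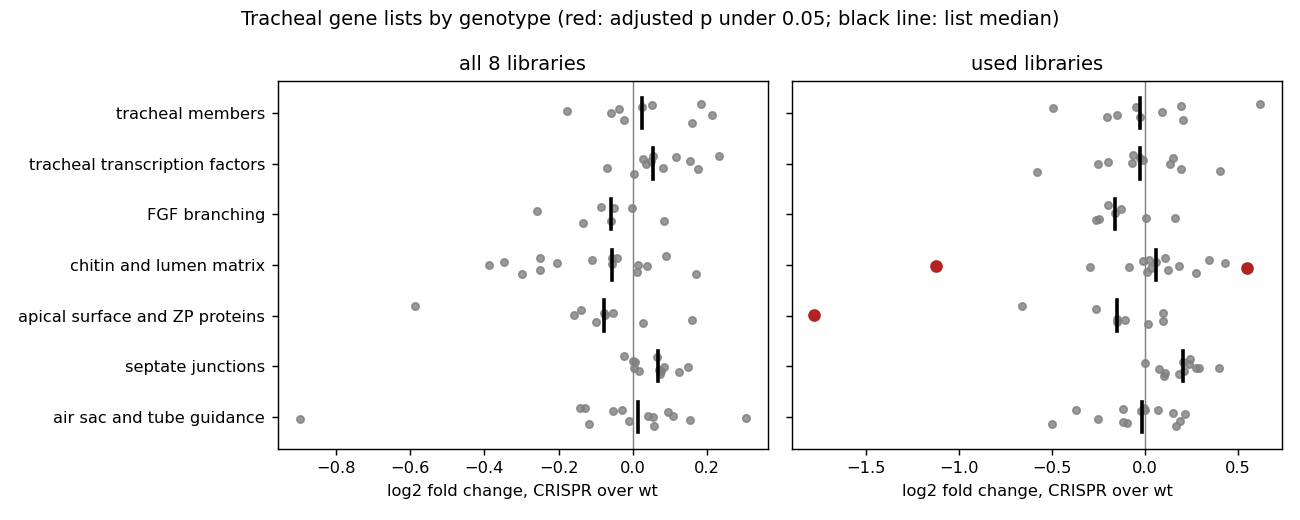
Log2 fold change, CRISPR over wt, of every tested gene in the tracheal lists, over all 8 libraries (left panel) and the used libraries (right panel), 1 point per gene, with list medians as black lines and genes at an adjusted p under 0.05 in red. The left panel has no red point, and the right panel has 3, Cht5, Cht7 and m.

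Genes whose profile was nearest to that of trh were found among 7341 other genes with an average log2 CPM of at least 1, by the root mean square difference of centred log2 levels over 8 libraries. The nearest were CG6700 (0.0616), CG10353 (0.0810), ebo (0.0884), the JNK pathway kinase gene hep (0.0928), CG4294 (0.0949) and CG5674 (0.0972), against a median of 0.335 over the candidates. CG6700 stood at 99.0, 133, 131 and 79.7 CPM in CRISPR 1 to CRISPR 4, against 105, 118, 115 and 85.6 CPM in wt 1 to wt 4. None of the 6 is in a tracheal list. For the mean profile of verm, serp, Gasp and obst-A, the nearest were CG33298 (0.0571), the proline catabolism gene P5CDh1 (0.0600), CG34134 (0.0649), CG7627 (0.0678), Miga (0.0694) and the ion transport peptide gene ITP (0.0717), against a median of 0.288. All share the same 8 libraries and their composition, and likeness by this measure is a description.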

How the data were processed

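The deposited values are raw counts of reads for each gene in 8 libraries. FastQC, Trimmomatic 0.36, STAR, DESeq2 and the build dm6 are named in the submitters' processing notes. Which program counted the reads, with which strand setting and annotation, is not given in the sources used here. The 5 rows that name no gene were left out (no feature 0.955% to 1.91%, ambiguous 3.07% to 3.44%, not unique 2.22% to 4.40% of reads).

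Symbols and dm6 places came from Ensembl and RefSeq tables, which gave a symbol to 17253 of 17559 IDs. The genotypes were compared in edgeR 4.0.16 under R 4.3.3 (TMM, filterByExpr with minimum count 10 and minimum total 15, two-sided quasi-likelihood test, Benjamini-Hochberg adjustment over all genes), with DESeq2 1.42.0 and limma 3.58.1 beside it. The edgeR step was tested on simulated data whose spread between libraries was set lower than in these data, so that run does not measure how the step performs here. Figures were drawn in Python 3.11.15. Same-numbered libraries deviated together (correlations across genes of 0.45, 0.16, 0.45 and 0.72 for numbers 1 to 4, against -0.52 to 0.45 in the 12 pairs of different number). Each exceeded 0.1, the limit set for pairing, so the numbers were taken to pair them, although 5 of 8 libraries correlated best with their own number and 3 with another. For number 2 the pairing was weak, as CRISPR 2 correlated better with wt 1 (0.26) and wt 3 (0.18) than with wt 2. The main genotype tests did not use the pairing, which entered only in the fit with the number as a replicate block. The nearest-profile genes, the list genes with the smallest p or a call, and all members were named by rule. Members and lists were chosen with earlier results of these data known.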

Additional observations from a re-analysis of the deposited data

Results flagged for a closer look

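In 5 cases, 1 library of a genotype was marked as apart from the other 3, among 20 groups of 4 examined. The mark is relative to the spread of the group, so the distance in CPM can be small. Chance marks about 1 in 20 independent groups, and these groups were not independent. The genes verm and serp moved together, and wt 2 and wt 3 differed by a median of 0.016 on the log2 scale over the 9 tested members. The share of all tested genes with such a mark was not measured, so the count cannot be read as particular to these genes. The obst-A level of 243 CPM in CRISPR 4 stood above the other 3 CRISPR libraries. In wt 1, vvl at 572 CPM and Gasp at 232 CPM stood above the other 3 wt libraries, although the vvl values in wt spanned only 20.2 CPM. In wt 4, verm at 360 CPM and serp at 168 CPM stood below them.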

How the results depend on the processing

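Over all 8 libraries edgeR called 17 genes. It called 14 with the number as a replicate block, 7 with use status as a covariate, 0 without the pair numbered 4, 0 without wt 2, wt 3 and CRISPR 3, and 1 to 26 leaving out 1 library, and DESeq2 called 78. In every one of these fits 0 tracheal genes were called, so the pairing changed no call of a tracheal gene. Signs near 0 turned: without the pair numbered 4 the log2 change of dysf was 0.016, and without wt 2, wt 3 and CRISPR 3 it was 0.033 for dysf, 0.18 for verm, -0.034 for pio and 0.041 for uif. Leaving out 1 library gave -0.26 to 0.077 for dysf, -0.095 to 0.14 for serp, -0.095 to 0.11 for trh, -0.27 to 0.19 for uif and -0.19 to 0.057 for verm. It also gave 0.0029 (without CRISPR 2) to 0.40 (without wt 1) for Gasp, 0.00034 (without CRISPR 3) to 0.27 (without CRISPR 2) for pio, 0.10 to 0.28 for vvl and -0.28 to -0.14 for obst-A.

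Over the used libraries edgeR called 264 genes, 400 without a filter, 5 with the spread taken over all 8 libraries, 8 for the 4 not-used libraries and 39 to 5759 leaving out 1 library, while DESeq2 called 781 and limma-voom 398. Tracheal genes called were 0, 2 in DESeq2 and 0 to 10 leaving out 1 library. With the spread over all 8 libraries the log2 change was 0.011 for trh and 0.034 for vvl. Among the not-used libraries it was 0.060 for trh, 0.33 for vvl, 0.43 for dysf, -0.32 for verm, -0.21 for serp, -0.26 for Gasp, 0.41 for pio and -0.42 for uif. Leaving out 1 library gave -0.34 to 0.20 for trh and -0.19 to 0.13 for vvl. No paired analysis was possible for the used libraries because they share 1 number.

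The interaction called 0 genes, 67 without a filter, 154 in DESeq2 and 0 to 276 leaving out 1 library, with 0 tracheal genes in each. Leaving out 1 library gave -0.30 to 0.24 for trh and -0.15 to 1.44 for uif. The causes of these shifts were not tested. Fits with 1 library in a group assume that it varies like the others.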
